A study of Mus musculus with 17 samples.

Results

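The genes described here are 10 receptors that carry proteins and RNA through the nuclear pore, namely Tnpo1, Tnpo2, Tnpo3, Kpnb1, Kpna1, Kpna2, Kpna3, Kpna4, Ipo5 and Xpo1. They were taken by gene symbol from a table of 55453 distinct symbols, and all 10 were among the 16265 genes that passed a mean of at least 1 TPM (a transcript level corrected for length and scaled to the total of the library) and were tested. RNA was sequenced from the bulk cortex of male C57BL/6J mice in 17 libraries. At 8 weeks of age, 3 mice hemizygous for a knockout of the X-linked gene Hnrnph2 (KO) were set beside 3 wild-type mice (KO control), and 3 mice hemizygous for the Hnrnph2 R206W substitution beside 3 wild-type mice (R206W control). At 3 weeks, 3 mice hemizygous for Hnrnph2 P209L were set beside 2 wild-type mice (P209L control). Every mutant group is 1 line of mice, and the alleles are in the germ line, so every cell of the cortex carries them. The labels name no treatment and do not describe the KO allele. The P209L line differs from the other lines in age as well as in allele, so line and age cannot be told apart there.

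Import receptors of the importin β family bind cargo in the cytoplasm, pass the pore and release the cargo when they meet Ran bound to GTP in the nucleus. Importin β itself, the product of Kpnb1, reaches most cargo through an importin α adaptor, encoded by the Kpna genes, that reads the classical nuclear localization signal. The transportins encoded by Tnpo1 and Tnpo2 bind a different signal directly, the proline-tyrosine signal (PY-NLS) of hnRNP and FET proteins, and Tnpo1 encodes the protein also named Kapβ2. hnRNPH2, an RNA-binding protein that acts in splicing, carries such a signal, and both substitutions lie in it. The question put to the data was whether the mRNA of the receptors differed in mice that lack hnRNPH2 or carry it with a changed signal.

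The substituted codons are shown first, since they are what ties the mutant lines to the transportins. In the reference coding sequence of Hnrnph2 (GENCODE M21, GRCm38, chrX:134605505-134605552, plus strand, in the coding part of the gene), the codon replaced in R206W encodes R and the codon replaced in P209L encodes P. Both are in capitals, in this order, in a stretch of 48 bases.
Hnrnph2: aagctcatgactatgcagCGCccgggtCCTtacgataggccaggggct

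Tnpo1 (chr13:98839019-98926384, minus strand) and Tnpo2 (chr8:85036915-85057583, plus strand) encode the transportins that bind the PY-NLS, so it was checked whether reads could be shared between them. Their coding sequences, of 2694 and 2691 bases, were identical at 1990 positions, or 73.9% of the longer. The longest run of bases they shared was 26. The windows of 60 bases around that run are shown, with the 10 bases at which they differ in capitals.
Tnpo1: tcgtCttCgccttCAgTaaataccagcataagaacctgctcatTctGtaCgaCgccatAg
Tnpo2: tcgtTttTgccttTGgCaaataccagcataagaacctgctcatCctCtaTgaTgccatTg
None of the 45 pairs of receptors shared a run of 50 bases in any annotated transcript. Tnpo2 overlapped a noncoding transcript on the opposite strand, A230103J11Rik, whose mean was 3.26 TPM, and Tnpo1 overlapped an opposite-strand pseudogene, Gm5453, with a mean of 35.2 TPM. The kit keeps the strand, but the strand setting used in counting is not given in the sources used here.

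The targeted gene, Hnrnph2, was at 23.1 ± 1.60 TPM (SD, n = 3) in KO against 121.6 ± 35.7 TPM in KO control, and its log2 difference of -2.58 without KO control 1 had a limma adjusted p of 2.45e-09. In the knockin lines, whose alleles change a codon, its level was 146.0 ± 12.9 against 145.4 ± 4.57 TPM in the R206W line, and 92.5 ± 9.30 against 86.5 ± 6.97 TPM (n = 2) in the P209L line. KO control 1 stood apart from the other libraries. Mitochondrially encoded transcripts took 20.1% of its TPM, against 10.7% to 15.4% in the other 16 libraries. It was the lowest of the 3 KO controls for 10 of 10 receptors, at 54.9% to 84.5% of the mean of the other pair. The KO differences of the receptors that the text turns on, and the effects set against KO, are therefore also given without it. The limma fit shared the spread between mice over all groups, so this library also entered the SEs and intervals of the other lines. Those lines were set apart from it only in the alternative that fits each comparison on its own groups. P209L control 2 carried 1740 TPM of Ttr, a choroid plexus transcript, against 0.67 to 23.2 TPM in all other libraries. Markers of cortical neurons were detected in every library, all 8 of 8 genes, and no gene of the 9 cell type lists was at 0. The depth of the libraries is unknown, since TPM keeps none.

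At 8 weeks in wild-type cortex (6 mice), the receptors were ordered by TPM, which is per unit length. Kpna1, an importin α, had the highest mean at 72.9 ± 10.8 TPM, followed by Tnpo2 at 70.5 ± 13.6, Kpnb1 at 68.5 ± 13.0 and Ipo5, an importin for ribosomal proteins and histones, at 63.7 ± 12.8 TPM (SD, n = 6). Kpna3 stood at 56.1 ± 6.21 TPM and Tnpo3, the importer of SR splicing proteins, at 52.0 ± 8.00 TPM. Xpo1, the main exporter of proteins with a leucine-rich export signal, stood at 41.6 ± 3.71 TPM, Kpna4 at 37.2 ± 5.01, Tnpo1 at 24.3 ± 2.33 and Kpna2 at 22.5 ± 4.68 TPM. In this order, the step from Tnpo3 to Xpo1 and the step from Kpna4 to Tnpo1 exceeded the larger SD of the neighbours. The other 7 steps did not. Within mice, Kpnb1 still lay above Ipo5 and Xpo1 above Kpna4 in 6 of 6, and the rest of those steps held in 4 or 5 of 6. Of the PY-NLS transportins, Tnpo2 was the more abundant mRNA in every library, at 2.21 to 3.64 times the level of Tnpo1 in the KO controls.

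**Figure D1:**
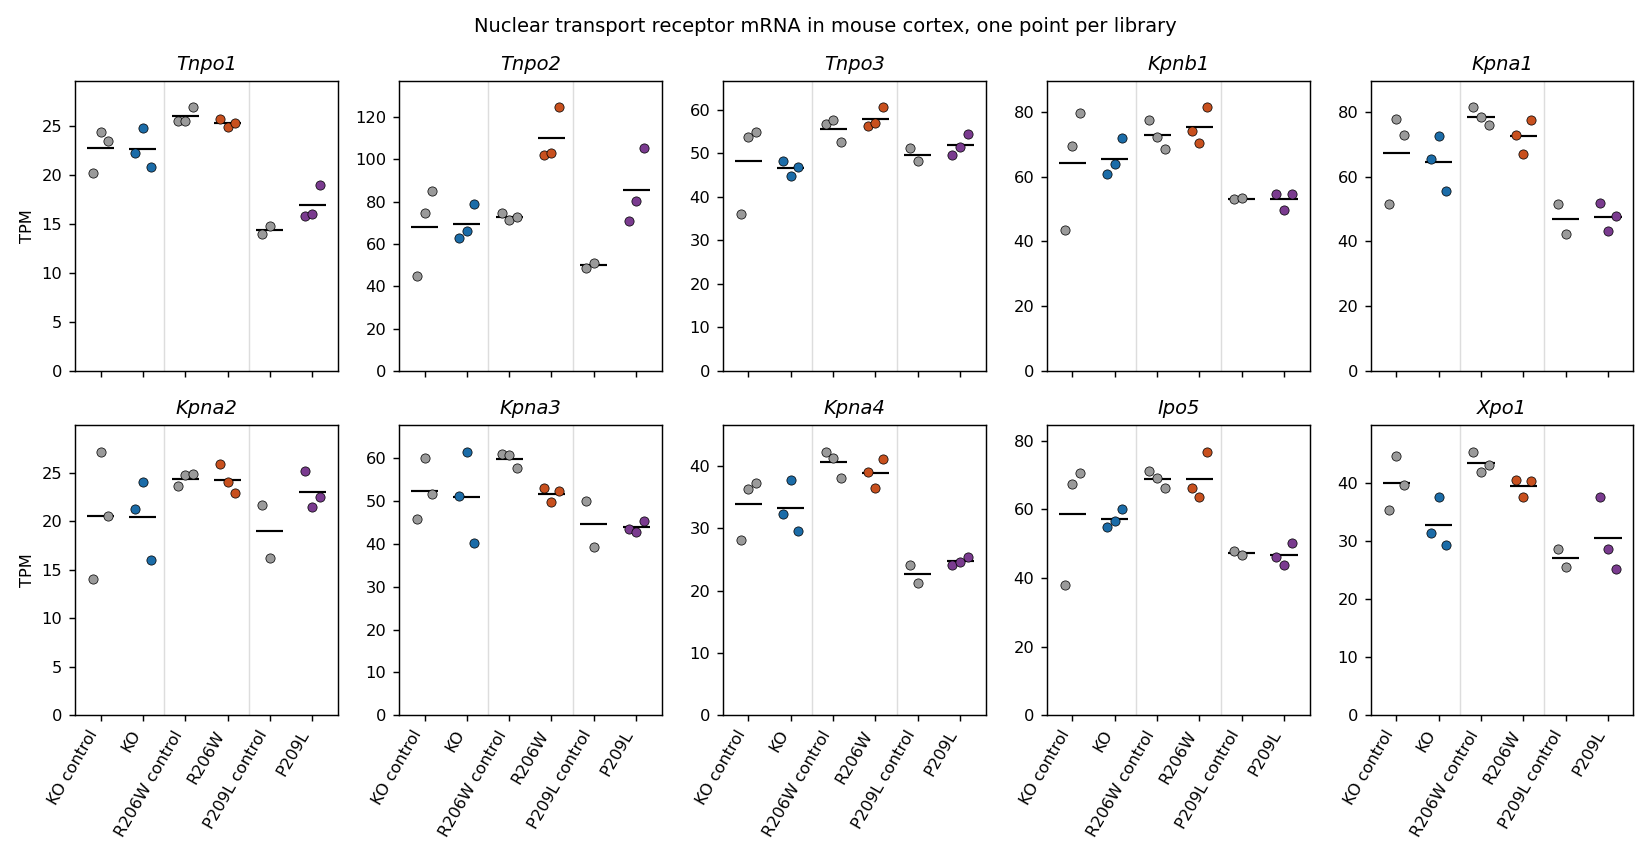
TPM (y axis, linear, from 0, own scale per gene) of each of the 10 receptors in the 6 groups (x axis), with 1 point per library and a bar at the group mean. Tnpo2 in R206W lies between 102 and 124.5 TPM, above every R206W control, and KO control 1 is the lowest KO control in all 10 panels.

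Tnpo2 was the receptor whose level differed most between the knockin mice and their controls. In the R206W controls it stood at 74.6, 71.3 and 72.7 TPM, and in the R206W mice at 102.0, 103.1 and 124.5 TPM. The groups did not overlap, with R206W 3 the highest and the controls close together. The difference was 0.58 in log2(TPM + 1) (SE 0.19, 95% interval 0.17 to 0.99), a fold of 1.50 on that scale. limma gave an unadjusted p of 0.00873, rank 73 of 16265 genes, and a Benjamini-Hochberg adjusted p of 1.0. An exact permutation test of the TPM values, two-sided, gave p = 0.1, and 3 mice against 3 can give no lower value.

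In the P209L line the controls stood at 48.7 and 51.2 TPM of Tnpo2, and the P209L mice at 70.9, 80.5 and 105.3 TPM. Again the groups did not overlap, and the P209L mice were spread over a wider range than their controls. The difference was 0.75 in log2(TPM + 1) (SE 0.22, 95% interval 0.29 to 1.21), a fold of 1.68. limma gave an unadjusted p of 0.00346, rank 171 of 16265, and an adjusted p of 0.322. The same exact permutation test gave p = 0.2, where 3 mice against 2 can give no less than 0.1. Tnpo2 was among the genes the study had singled out from these libraries, so these tests are not independent evidence of its direction.

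In the KO line, Tnpo2 stood at 44.8, 74.8 and 85.2 TPM in the controls and at 63.0, 66.0 and 79.0 TPM in the KO mice. The KO mice lay inside the range of their controls. The limma difference in log2(TPM + 1) was 0.07 (SE 0.19, 95% interval -0.34 to 0.48, adjusted p 0.999), and it was -0.21 (adjusted p 0.627) without KO control 1.

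The effects of the lines were then set against each other. The Tnpo2 effect in R206W exceeded that in KO by 0.51 (SE 0.27, limma unadjusted p 0.0796, adjusted p 1.0), and the effect in P209L exceeded that in KO by 0.68 (SE 0.29, unadjusted p 0.0332, adjusted p 0.587), both in log2(TPM + 1). Without KO control 1 these differences were 0.79 (limma adjusted p 0.440) and 0.95 (adjusted p 0.0921). The P209L effect minus the R206W effect was 0.17 (95% interval -0.45 to 0.78), which covers differences in both directions. So a difference in Tnpo2 between the substitutions and the knockout did not pass the test over all genes. The average of both knockin effects was 0.66 (SE 0.15, limma unadjusted p 0.000341, rank 45, adjusted p 0.123). That average was a comparison formed with earlier results of these data known.

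The call for Tnpo2 depended on scaling and on library weights. In P209L its limma adjusted p was 0.0231 with median-of-ratios size factors, 0.0406 after quantile normalization and 0.0173 with weights that count noisy libraries less, and the range over all alternatives was 0.0173 to 1.0. In R206W it passed only with the weights (adjusted p 0.00427, range over all alternatives 0.00427 to 1.0). The size of the difference stayed between 0.49 and 0.63 in R206W and between 0.59 and 0.87 in P209L when each mouse was left out in turn. The library with the highest Tnpo2 in each knockin group, R206W 3 and P209L 3, also had the lowest mitochondrial share of its line, 10.7% and 12.5%. The other R206W mice had 13.4% and 13.6%, above the 12.1% to 13.2% of their controls, and held 102.0 and 103.1 TPM of Tnpo2. The other P209L mice had 14.1% and 13.3%, and both P209L controls 13.6%. The part of this share in the differences was not tested. In bulk tissue, more RNA per cell and more cells of a type that holds it cannot be told apart.

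The oligodendrocyte list (6 genes) summed to 2401 to 3460 TPM in P209L and to 3964 to 5928 TPM in P209L control, with no overlap. The neuron list overlapped between mutant and control in all 3 lines (2118 to 2594 against 2275 to 2467 TPM in P209L). In the R206W line the astrocyte list (5 genes) was the higher in the mutant, at 629 to 637 against 593 to 626 TPM, and so was the endothelial list (4 genes), at 110.0 to 115.7 against 102.9 to 109.9 TPM. Leptomeningeal markers (5 genes) were the lower in P209L, at 39.5 to 62.6 against 69.6 to 81.7 TPM, striatal markers (3 genes) the higher there, at 13.4 to 15.7 against 12.4 to 13.3 TPM, and astrocyte markers the higher in KO, at 618 to 713 against 464 to 611 TPM. The other lists overlapped in every line, and the part of the lists without overlap was not tested.

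Tnpo1 encodes the better known receptor of the changed signal. It stood at 25.5, 25.5 and 26.9 TPM in the R206W controls and at 25.6, 24.8 and 25.2 TPM in the R206W mice, a difference of -0.04 in log2(TPM + 1) (95% interval -0.26 to 0.18). These groups overlapped. In the P209L line Tnpo1 stood at 13.9 and 14.8 TPM in the controls and at 15.8, 16.0 and 19.0 TPM in the mutants, without overlap. That difference was 0.22 (95% interval -0.02 to 0.46, limma adjusted p 0.727), and 0.14 without P209L 3. In the KO line it was 20.2, 24.4 and 23.4 TPM in the controls against 22.2, 24.7 and 20.8 TPM, a difference of -0.005, which changed sign when libraries were left out and was -0.08 without KO control 1.

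A ratio within a library does not depend on how the library is scaled, so Tnpo2 was also taken as a share of Tnpo1 plus Tnpo2. The share was 74.5%, 73.6% and 73.0% in the R206W controls and 79.9%, 80.6% and 83.1% in the R206W mice. It was 77.8% and 77.6% in the P209L controls and 81.8%, 83.4% and 84.7% in the P209L mice. In both knockin lines every mutant lay above every control. The mean difference was 7.49 percentage points in R206W and 5.62 in P209L, each with a two-sided exact permutation p of 0.1, the smallest the group sizes allow, and an adjusted p of 0.15 over the 3 lines. In the KO line the share was 68.9%, 75.4% and 78.4% in the controls and 73.9%, 72.8% and 79.2% in KO, a difference of 1.04 points (exact permutation p 0.9) that became -1.63 points without KO control 1. Such a ratio shows that the pair changed unequally and not which of them changed. Because the study had singled out Tnpo2 from these libraries, its share is not independent evidence either. How often other gene pairs separate in this way was not counted.

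**Figure D2:**
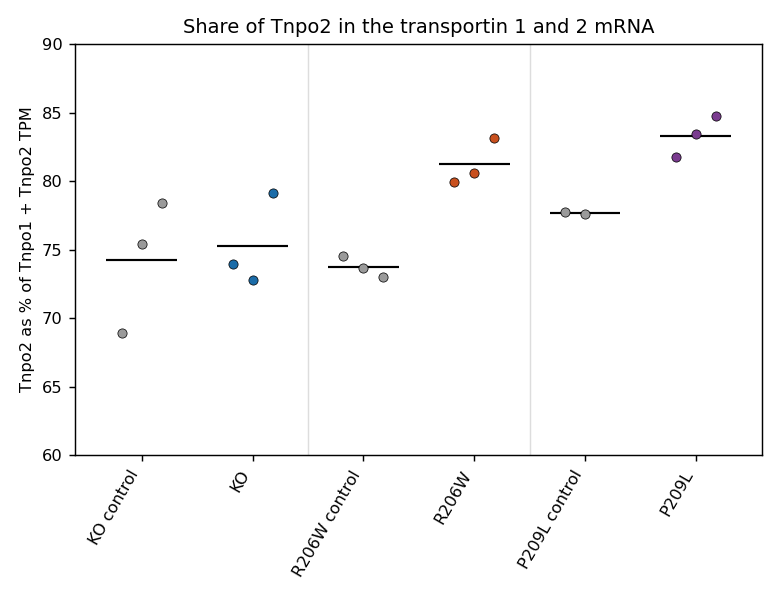
Tnpo2 as a percent of Tnpo1 plus Tnpo2 TPM (y axis, from 60 to 90%) in the 6 groups (x axis), with 1 point per mouse and a bar at the group mean. All R206W and P209L mice lie above their controls, and the KO mice, at 72.8 to 79.2%, overlap theirs.

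Over all 10 receptors, Tnpo2 made up 13.1% to 13.8% of the summed TPM in the R206W controls and 18.4% to 20.7% in the R206W mice, and 12.5% to 14.3% against 16.9% to 23.4% in the P209L line. In KO it made up 13.5% to 17.6%, against 12.5% to 15.9% in KO control. The sum of the other 9 receptors was 470 ± 15.5 TPM in R206W control and 454 ± 23.5 TPM in R206W, and 325 ± 24.2 TPM (n = 2) in P209L control and 338 ± 14.5 TPM (n = 3) in P209L. In each line the difference between the sums was smaller than the larger SD of the pair.

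Counted over the list, 0 of 10 receptors were called by limma at an adjusted p under 0.05 in KO, where 0.00615% of all tested genes were called. The counts were 0 of 10 in R206W (0.0369% of all genes), 0 of 10 in P209L (0.0984%) and 0 of 10 in the knockin average (0.178%). For the differences between effects they were 0 of 10 for R206W minus KO (0.0307%), for P209L minus KO (0.0492%) and for P209L minus R206W (0.0%). At an unadjusted p under 0.05, 0 receptors passed in KO (4.08% of all genes), 1 in R206W (2.19%) and 1 in P209L (7.46%), in both cases Tnpo2. The R206W and control mice did not overlap for 1 receptor that was higher, Tnpo2 (8.09% of all genes), and for 2 that were lower, Kpna3 and Xpo1 (8.11%). In P209L, 3 receptors were higher without overlap, Tnpo1, Tnpo2 and Kpna4 (14.2% of all genes), and 0 were lower (10.7%). Kpna4 was separated there by 0.01 TPM, the last digit of the table. In KO, 0 receptors were separated (6.25%). These KO counts depended on KO control 1. Without it, every KO mouse lay below both other controls for Ipo5, Tnpo3, Xpo1 and, narrowly, Kpna1. Their unadjusted limma p was then 0.0103, 0.0115, 0.0218 and 0.0766, with adjusted p of 0.4095 to 0.5127. The matching shares of all genes were not counted, so it is unknown whether these receptors stand out from other genes. Without KO control 1 the median over all genes in KO was also below 0, at -0.06 in log2(TPM + 1). With all libraries, the median receptor differed by -0.02 in KO, -0.02 in R206W and 0.09 in P209L on that scale. The medians over all genes were then 0.06, 0.01 and 0.02.

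**Figure D3:**
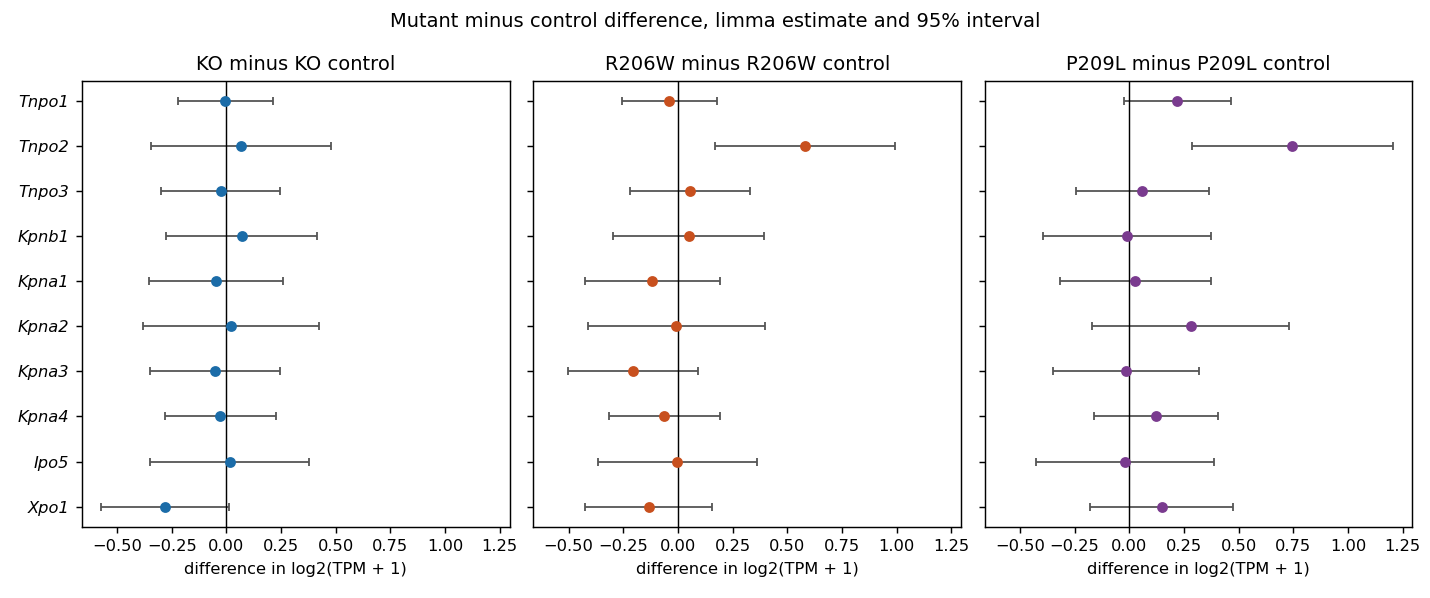
Difference between mutant and control in log2(TPM + 1) (x axis) for the 10 receptors (y axis) in the KO, R206W and P209L lines, as the limma estimate with its unadjusted 95% interval. Tnpo2 in R206W (0.58) and P209L (0.75) has the only intervals that do not include 0.

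Among the receptors of the classical pathway, Kpnb1 stood at 72.8 ± 4.45 TPM in R206W control and 75.4 ± 5.57 in R206W, and at 53.3 ± 0.177 TPM (n = 2) in P209L control and 53.0 ± 2.73 in P209L. Its differences of 0.05 and -0.01 in log2(TPM + 1) were within the spread between mice. Of the importin α adaptors, Kpna3 had the largest difference in R206W. It was 61.0, 60.8 and 57.6 TPM in the controls and 53.1, 49.8 and 52.2 TPM in the R206W mice, with every mutant below every control. The difference was -0.21 (95% interval -0.50 to 0.09, limma adjusted p 1.0), and in P209L, where the groups overlapped, it was -0.01. Kpna2, best known from dividing cells, stood at 21.7 and 16.2 TPM in P209L control and at 25.2, 21.5 and 22.6 TPM in P209L, a difference of 0.28 (95% interval -0.17 to 0.73). It was 0.08 without P209L control 2 and 0.48 without P209L control 1. Kpna1 and Kpna4 differed by -0.12 to 0.12 in the 3 lines. The lowest of these values was that of Kpna1 in R206W (limma adjusted p 1.0), where the groups overlapped.

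Xpo1 had the largest negative difference of the receptors in KO. It stood at 35.3, 44.6 and 39.7 TPM in the KO controls and at 31.3, 37.6 and 29.2 TPM in the KO mice, and the groups overlapped only through KO 2 and KO control 1. The difference was -0.28 in log2(TPM + 1) (SE 0.14, limma unadjusted p 0.0591, adjusted p 0.999), and -0.36 (adjusted p 0.422) without KO control 1. With library weights its adjusted p was 0.0119, and the range over all alternatives was 0.0119 to 1.0. In R206W, Xpo1 was 45.3, 41.8 and 43.0 TPM in the controls and 40.4, 37.6 and 40.3 TPM in the mutants, a difference of -0.13 (adjusted p 1.0), and in P209L the difference was 0.15, with overlapping groups. Ipo5 differed by 0.02, -0.002 and -0.02 and Tnpo3 by -0.03, 0.06 and 0.06 in KO, R206W and P209L. Without KO control 1 the KO differences were -0.27 for Ipo5 and -0.22 for Tnpo3 (limma adjusted p 0.409 for both).

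The signs of the small differences in KO changed with the libraries and the scaling used. With all libraries, 4 receptors lay above 0 and 6 below. Without that library, and also with median-of-ratios size factors, all 10 lay below 0, with medians of -0.21 and -0.09 beside medians over all genes of -0.06 and -0.004. Limma called 0 receptors in KO without it, where 0.0307% of all genes were called. The R206W controls lay above the KO controls for 10 of 10 receptors (median 0.22, all genes 0.13), with 0 called (0.0% of all genes), 1 at an unadjusted p under 0.05 (3.12%) and 2 higher without overlap (8.43%). Without KO control 1, 7 lay above and 3 below, with a median of 0.04 (all genes -0.001). With median-of-ratios scaling, 8 of 10 lay above, with a median of 0.08.

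The largest differences among the wild-type mice were between ages. All 10 receptors were lower in the 3-week than in the 8-week controls, by a median of -0.43 in log2(TPM + 1), where the median of all genes was -0.12. Tnpo3 differed by only -0.05 and changed sign to 0.09 with median-of-ratios and 0.08 with quantile scaling. Limma called 4 of 10 receptors lower and 0 higher, and 24.8% of all genes were called lower. Tnpo1 was lower by -0.72 (SE 0.10, adjusted p 0.000154), with 13.9 and 14.8 TPM at 3 weeks and 20.2 to 26.9 TPM at 8 weeks. Kpna4 was lower by -0.68 (adjusted p 0.000602), Kpna1 by -0.62 (adjusted p 0.00431) and Xpo1 by -0.60 (adjusted p 0.00371), also from limma. For each of these 4 genes the ages did not overlap, and 21.5% of all genes were lower without overlap at 3 weeks. Tnpo2 differed by -0.46 (limma adjusted p 0.0725), and it passed under some alternatives, such as without KO control 1 (adjusted p 0.00209, range over all alternatives 0.000272 to 0.278). The count of receptors called was 8 without KO control 1, where 50.3% of all genes were called in either direction against 36.1% with it. It was 2, Tnpo1 and Kpna4, without P209L control 2, where 16.7% of all genes were called. The 3-week mice are all from the P209L line, so line and age cannot be told apart.

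**Figure D4:**
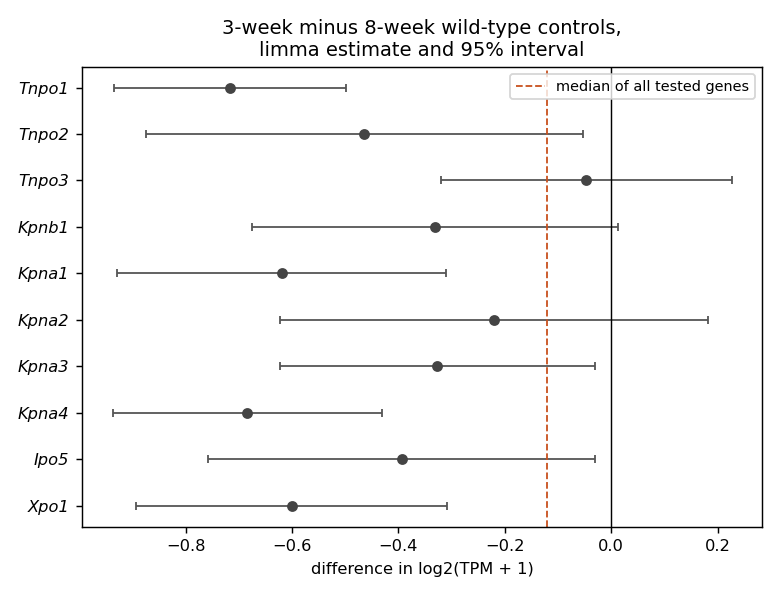
Difference between 3-week (n = 2) and 8-week (n = 6) wild-type controls in log2(TPM + 1) (x axis) for the 10 receptors (y axis), as the limma estimate with its unadjusted 95% interval. The dashed line is the median of all tested genes (-0.12), and Tnpo1, at -0.72, lies farthest from 0.

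Further genes of the transport pathway were described from 4 lists. Of 16 other karyopherins, 7 genes of the Ran system, 29 of 30 nucleoporins with enough signal and 18 PY-NLS cargoes, limma called 0 in R206W and 0 in P209L, and in KO it called Hnrnph2 alone. The list medians were between -0.03 and 0.03 in the knockin lines and between 0.05 and 0.11 in KO, in log2(TPM + 1). Rcc1, the exchange factor that loads Ran with GTP in the nucleus, was 10.8, 10.8 and 11.4 TPM in the R206W controls and 7.97, 8.50 and 8.54 TPM in R206W. Every R206W mouse lay below every control, by -0.36 on the log2 scale (limma unadjusted p 0.0419, adjusted p 1.0). With library weights its adjusted p was 0.0381, and the range over all alternatives was 0.0381 to 1.0. In P209L, the 3 mice had 7.47, 11.1 and 11.4 TPM of Rcc1 against 10.2 and 11.1 TPM, which overlapped. Nup43, a scaffold nucleoporin, was 3.67 and 4.22 TPM in P209L control and 6.29, 5.68 and 5.27 TPM in P209L, higher by 0.45 (limma unadjusted p 0.0105, adjusted p 0.461). Nup107, another scaffold nucleoporin, was 9.19 ± 1.58 TPM in KO and 7.10 ± 1.23 TPM in KO control, with overlap. The difference was 0.33 (limma unadjusted p 0.0451, adjusted p 0.999), and 0.20 without KO control 1.

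Among the PY-NLS cargoes, Hnrnph1, the closest paralog of Hnrnph2, was 246, 337 and 329 TPM in KO control and 443, 445 and 408 TPM in KO, with no overlap. The difference was 0.52 in log2(TPM + 1) (SE 0.13, limma unadjusted p 0.00102, adjusted p 0.806), and 0.37 (adjusted p 0.406) without KO control 1. With library weights its adjusted p was 0.0095, and the range over all alternatives was 0.0095 to 1.0. Hnrnph1 was also higher without overlap in P209L, at 401, 305 and 313 against 273 and 284 TPM. That difference was 0.28 (limma adjusted p 0.726), and in R206W, where the groups overlapped, it was 0.10. The KO effect on Hnrnph1 was not set against the knockin effects here. In P209L, Cpsf6, a cleavage factor of mRNA 3′ ends, differed by 0.27 and Taf15, a FET protein, by -0.32 (limma adjusted p 0.558 and 0.654). In the comparison of ages, limma called 1 other karyopherin higher and 7 lower, 0 and 2 genes of the Ran system, 0 and 6 nucleoporins, and 2 and 8 cargoes, at the 11.3% higher and 24.8% lower of all genes. Ranbp2, the nucleoporin of the cytoplasmic filaments, had the largest negative difference of the nucleoporins between ages, -1.14 (limma adjusted p 6.71e-05).

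The genes whose pattern was most like that of Tnpo2 were found by the root-mean-square difference from Tnpo2, over 17 libraries, of log2(TPM + 1) minus the mean of the controls of the same line. They were Sipa1l1 (0.10), a postsynaptic protein, Ash1l (0.11), a histone methyltransferase, Med13l (0.12), a subunit of the Mediator kinase module, Galnt16 (0.13) and Fbxl19 (0.14). The median over all genes was 0.45. The root mean square of the Tnpo2 deviations themselves was also 0.45, which is what a gene without any deviation would score. Tnpo1 took rank 2505 of 16264 by this measure (0.38). Sipa1l1 differed by -0.08, 0.49 and 0.69 in KO, R206W and P209L, and Ash1l by -0.07, 0.52 and 0.81. Since these genes were picked for likeness in the same libraries, their differences follow from the choice and are no separate evidence. The nearest tested protein-coding genes outside Tnpo2 on the chromosome were Trir, 6629 bases upstream, and Fbxw9, 2472 bases downstream. Trir differed by 0.08, 0.04 and 0.11 in KO, R206W and P209L, and Fbxw9 by 0.33, 0.13 and -0.06 in the same order, with 0 called.

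hnRNP H proteins bind runs of G in RNA, so runs of at least 3 G (GGG, sense strand only) were counted in the coding sequences as a description. The 2691 coding bases of Tnpo2 held 31 runs, or 11.5 per 1000 bases, and 46.5% of 13093 genes held fewer per base. The median gene held 11.998, and 99.8% of coding sequences held at least 1 run. Tnpo1 held 20 runs, or 7.42 per 1000 bases, and 15.0% of genes held fewer. Tnpo2 had the highest density of the 10 receptors, which ranged from 4.67 in Xpo1 upward, and also the highest GC content, 54.9% against a median of 53.2% over all genes.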

How the data were processed

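Bulk cortex from 17 male C57BL/6J mice was sequenced with a stranded total RNA kit. The authors deposited 1 table of TPM values with 2 decimals. Their processing notes name Trim Galore, STAR 2.7.1a, GATK 4.0.4.0, RSEM and mm10, with no roles, and the annotation is not given in the sources used here. TPM sums to 1000000 per library and keeps no depth, so precision rests on the mice alone. The table has 55573 entries, of which 120 repeat a symbol. Groups came from sample titles and genotypes. The labels do not say whether mice of a group came from separate litters.

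Genes with a mean of at least 1 TPM (16265) were fitted as log2(TPM + 1) with limma 3.58.1 (R 4.3.3, eBayes with trend), with 1 mean per group over all 17 libraries. P-values were two-sided and adjusted by Benjamini-Hochberg over all genes of a comparison, with a threshold of 0.05. Folds are on the pseudocount scale and understate changes of low genes. Single values were tested by exact permutation. The fit was also run on simulated data. Their noise was drawn separately for each gene and mouse, so that run cannot speak to a shift shared by a whole library. The main fit did not pair mice by replicate number. Loci and coding sequences came from GENCODE M21 (GRCm38, the same assembly as mm10), with the longest complete coding sequence per gene. Named genes were the 10 receptors, the 5 genes most like Tnpo2, and, of each wider list, genes called or with the 2 smallest p in a mutant line, of which the text gives those at an unadjusted p under 0.05. Ranbp2 was named after its values were seen. The receptors and lists were chosen with earlier results of these data known. Alternatives were pseudocounts of 0.1 and 0.5, no filter or a filter of 5 TPM, other scalings, removal of mitochondrial genes, robust eBayes, library weights, own groups only, a replicate block and leaving out each library.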

Additional observations from a re-analysis of the deposited data

Results flagged for a closer look

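Over the 6 wild-type mice of 8 weeks, KO control 1 was the lowest library for 10 of 10 receptors. For 5 of them its gap to the next library, divided by the range of the 6, was above Dixon's 95% critical value, which marks a library as far from the others. These were Tnpo2 at 44.8 TPM, Tnpo3 at 36.1 TPM, Kpnb1 at 43.5 TPM, Kpna1 at 51.7 TPM and Ipo5 at 37.9 TPM. The rule marks about 1 in 20 groups by chance, and the receptors share 1 library here. The mitochondrial share of that library was 20.1%, and its part in the low values was not tested.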

How the results depend on the processing

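Of 430 comparisons of a receptor's log2 difference with another setting in 4 comparisons, leaving out no library, 399 kept direction and side of the threshold. In 15 the direction changed, and 16 moved under the threshold. Most differences were not called in the main fit and several settings hardly change the log2 value, so the count of 399 says little about robustness. With library weights, limma called 2 receptors in KO (Ipo5 and Xpo1), 9 in the comparison of ages (4 in the main fit), and 1, Tnpo2, in R206W, in P209L, in the knockin average and in the R206W and P209L effects minus the KO effect. The shares of all genes called with weights were 13.1% in KO, 58.2% between ages, 0.916% in R206W, 0.443% in P209L, 1.2% in the knockin average, and 1.96% and 2.11% for the R206W and P209L effects minus the KO effect. Tnpo2 was also the 1 receptor called in P209L and in the knockin average with median-of-ratios and quantile scaling, and in the knockin average with own groups only. These 2 scalings called 0.406% and 0.357% of all genes in P209L, against 0.0984% in the main fit. In the knockin average they called 0.375% and 0.393%, against 0.178%. The share with own groups only was not counted. The Tnpo2 difference in P209L was 0.75 (median of ratios), 0.72 (quantile) and 0.74 (weights), and 0.53 in R206W with weights. Differences in KO that changed sign were -0.0089 for Tnpo2, -0.0066 for Kpnb1, -0.053 for Kpna2 and -0.060 for Ipo5 with median-of-ratios scaling, -0.038 for Kpna2 and -0.038 for Ipo5 with quantile scaling, and -0.23, -0.18, -0.25 and -0.27 for Tnpo2, Kpnb1, Kpna2 and Ipo5 with weights. With weights, Kpna2 in R206W became 0.015 and Kpna1 in P209L -0.028 (-0.0075 with quantile scaling). Tnpo3 between ages became 0.092 with median-of-ratios and 0.080 with quantile scaling. The causes were not tested.

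Leaving out 1 library in turn moved the receptors called between ages from 2 to 8 and the Tnpo2 share in KO from -1.63 to 3.13 points. In KO the ranges included both signs for Tnpo1 (-0.082 to 0.050), Tnpo2 (-0.21 to 0.25), Tnpo3 (-0.22 to 0.078), Kpnb1 (-0.18 to 0.25), Kpna1 (-0.23 to 0.066), Kpna2 (-0.22 to 0.24), Kpna3 (-0.20 to 0.10), Kpna4 (-0.15 to 0.049) and Ipo5 (-0.27 to 0.17). They did so in R206W for Kpnb1 (-0.0072 to 0.10), Kpna2 (-0.052 to 0.032) and Ipo5 (-0.082 to 0.051), in P209L for Kpnb1 (-0.030 to 0.034), Kpna1 (-0.11 to 0.16), Kpna3 (-0.18 to 0.15), Ipo5 (-0.070 to 0.028) and Xpo1 (-0.0087 to 0.27), and between ages for Tnpo3 (-0.14 to 0.0052).

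The labels give mutants and controls the same replicate numbers. The deviations of same-numbered mice correlated at 0.117, -0.0581 and 0.331 in KO, -0.0283, -0.0297 and -0.113 in R206W and 0.0814 and 0.00276 in P209L. In KO, mice of different numbers correlated at -0.299 to 0.265. Deviations from means of 2 or 3 mice are tied to each other, so these values cannot tell whether the numbers pair the mice. With the replicate block, Tnpo2 differed by 0.07 in KO, 0.58 in R206W and 0.59 in P209L, where P209L 3 has no numbered control, and 0 receptors were called. The groups of 2 or 3 mice and the unknown depth limit what could be detected.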
